A study of Sus scrofa with 9 samples.

Results

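Sulfation genes were followed in the liver of Wujin pigs fed diets that differed in iron, with PAPSS2, one of the enzymes that make the sulfate donor, as the starting point. The set holds 7 genes out of 25918 in the expression table: PAPSS1, PAPSS2, SULT1A1, SULT1E1, SULT2A1, SUOX and TST. PAPSS2 was picked for its fall with high iron in these same libraries, so its values are given as a description and no test of it is reported. The other 6 genes were chosen by their place in the pathway, with earlier results of these data known. Of the 7, 6 were found by symbol, and SULT1A1 was found as a synonym of the gene that NCBI annotation names SULT1A3, the name used for its row here. All 7 genes passed the filter on low expression, a mean of at least 0.5 FPKM over the libraries, which 12584 genes passed in all. FPKM scales the fragments of a gene by the length of its transcript and by the mapped fragments of the library, so levels of different genes are compared per length.

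The study asked how the iron content of the feed changes the liver transcriptome of the piglet. All pigs were of the Wujin breed, were 35 days old at the start, and were prefed for 5 days before 30 days of formal feeding. Iron was added as iron glycinate. The low-iron group received 0 mg/kg of added iron, the control group 100 mg/kg and the high-iron group 200 mg/kg, with 3 libraries in each group and 1 pig behind each library. The low-iron diet was the basic feed without a supplement, and that feed contained iron of its own. Pigs were housed singly, and the sequenced animals were drawn at random from a larger group on each diet. The study used males and females in equal number, and the sex of each sequenced pig is not given in the labels. Libraries are named by group and by the number in the label. It is 2, 3 and 7 in the low-iron group, 4, 5 and 6 in the control group, and 2, 7 and 8 in the high-iron group. The number is called the animal number here, though the labels do not say what it stands for.

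Sulfation attaches a sulfonate group to hormones, bile acids, drugs and sugar chains, and the liver is a main site of it. Inorganic sulfate is taken up by transporters or made in the cell from cysteine, where sulfite oxidase (SUOX) carries out the last step and thiosulfate sulfurtransferase (TST, also called rhodanese) handles the sulfur of sulfide and cyanide. The bifunctional synthases PAPSS1 and PAPSS2 join sulfate to ATP and phosphorylate the product, giving 3'-phosphoadenosine 5'-phosphosulfate (PAPS), the donor that every sulfotransferase uses. In the cytosol SULT1A1 sulfates phenols, SULT1E1 sulfates oestrogens, and SULT2A1 sulfates dehydroepiandrosterone and bile acids.

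The 9 libraries had between 16235 and 17817 genes above 0 FPKM. On the log2 scale the median distance of a library to the others was highest for high-iron 2, at 88.7, and for control 5, at 87.9, against 76.7 to 82.9 for the other 7. EIF1AY, a gene on chromosome Y, was at 0 FPKM in low-iron 3, control 5, high-iron 2 and high-iron 8 and between 15.0 and 26.5 FPKM in the rest, so the high-iron group held 2 libraries without it and each other group held 1. Hepatocyte markers were abundant in every library, with albumin (ALB) between 46231 and 74134 FPKM, which matches the liver label. Values in bulk tissue do not tell fewer cells of a type from less RNA per cell.

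PAPSS2 and its paralog PAPSS1 are the genes on which the synthesis of PAPS rests, and their coding sequences differ along their whole length. In the annotation of Sscrofa11.1, PAPSS2 lies at chr14:99718299-99816346 and PAPSS1 at chr8:114252059-114369309, both on the plus strand. The coding sequences of 1863 and 1875 bases were identical at 71.11% of the 1838 aligned bases, and the longest run without a difference was 14 bases. The most alike stretch of 100 bases within a single coding exon of each gene is shown because it is where a read would be hardest to assign, with the 20 differing bases in capitals. It covers coding bases 1320 to 1419 of PAPSS2, at chr14:99804248-99804347, and coding bases 1335 to 1434 of PAPSS1, at chr8:114331181-114331280, each printed 5′ to 3′ on the coding strand.
PAPSS2: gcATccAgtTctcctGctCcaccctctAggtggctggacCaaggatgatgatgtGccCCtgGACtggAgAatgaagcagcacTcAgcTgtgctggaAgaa
PAPSS1: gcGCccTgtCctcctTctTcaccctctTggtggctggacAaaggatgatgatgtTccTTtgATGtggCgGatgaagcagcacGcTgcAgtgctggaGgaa

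PAPSS2 was lower in every high-iron liver than in any other liver. The 3 high-iron libraries stood at 4.26, 4.40 and 4.92 FPKM. The control libraries stood at 11.8, 11.7 and 8.49 FPKM, and the low-iron libraries at 8.89, 6.01 and 9.96 FPKM. The high-iron values lay close together and below both other groups, which overlapped each other. The means were 4.53 ± 0.348 FPKM in the high-iron group, 10.7 ± 1.90 FPKM in the control group and 8.29 ± 2.04 FPKM in the low-iron group (SD, n = 3 each).

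On the log2(FPKM + 0.1) scale the difference of PAPSS2 between high-iron and control was -1.21 (standard error 0.23, 95% interval -1.71 to -0.70), a level 2.31-fold lower. Against the low-iron group it was -0.83 (standard error 0.23, interval -1.33 to -0.33), and between low-iron and control it was -0.38 (standard error 0.23, interval -0.88 to 0.12). These values chose the gene, so neither they nor their intervals carry a test. With EIF1AY as a covariate the difference between high-iron and control was -1.17.

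PAPSS1, the other PAPS synthase, was not lower on average in the high-iron group. Its levels were 3.04, 3.97 and 3.89 FPKM in the high-iron libraries, 2.96, 1.87 and 3.32 FPKM in the controls, and 2.22, 3.31 and 2.96 FPKM in the low-iron libraries. The groups overlapped, with the highest 2 values in high-iron livers and the lowest in control 5. The log2 difference between high-iron and control was 0.43 (standard error 0.26, interval -0.15 to 1.02, adjusted p = 0.932 by limma), and between high-iron and low-iron it was 0.36 (standard error 0.26, adjusted p = 0.825 by limma). Between low-iron and control it was 0.08 (interval -0.50 to 0.66). None of the 3 comparisons of PAPSS1 passed the test, and the intervals leave room for changes of either sign.

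**Figure D1:**
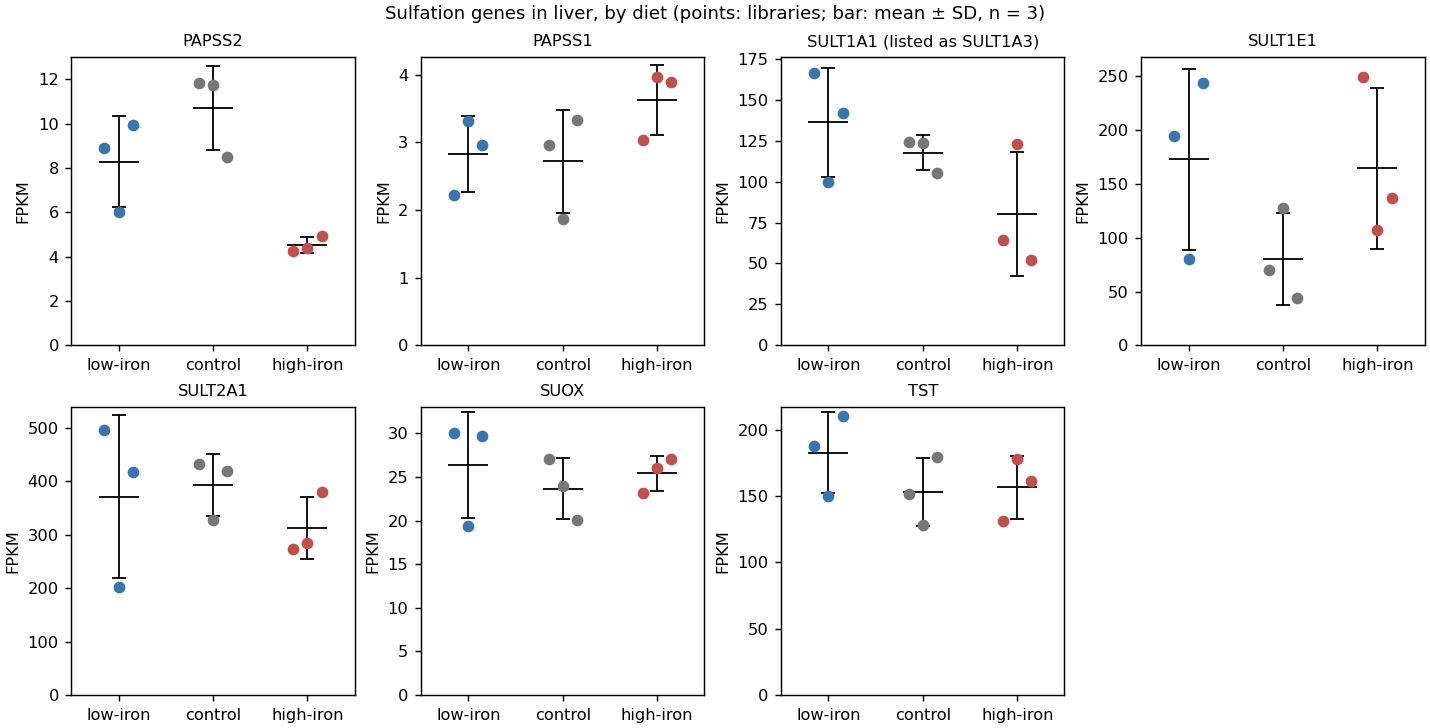
Level of each of the 7 genes in FPKM (vertical axis, from 0, scaled per panel) by diet; each point is 1 library, and the bar is the mean ± SD of 3. PAPSS2 in the high-iron group sits between 4.26 and 4.92 FPKM, below all other libraries, while the groups of the other 6 genes overlap.

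The make-up of the PAPS synthase transcripts followed from these values. PAPSS2 was 58.4%, 52.6% and 55.9% of the summed FPKM of both genes in the high-iron libraries. It was 80.0%, 86.3% and 71.9% in the control libraries and 80.0%, 64.5% and 77.1% in the low-iron libraries. The highest high-iron share was thus below the lowest share on the other diets. The sum itself was 7.30, 8.37 and 8.81 FPKM in the high-iron group, 14.8, 13.6 and 11.8 FPKM in the controls, and 11.11, 9.33 and 12.9 FPKM in the low-iron group. Since PAPSS2 was chosen for its fall, its share and the sum are descriptions too. The annotation gives PAPSS2 transcripts of 11968, 2838 and 2706 bases and PAPSS1 transcripts of 2860, 2640 and 2630 bases, so the ratio between both genes depends on the transcripts that the FPKM were scaled by, which the table does not give.

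**Figure D2:**
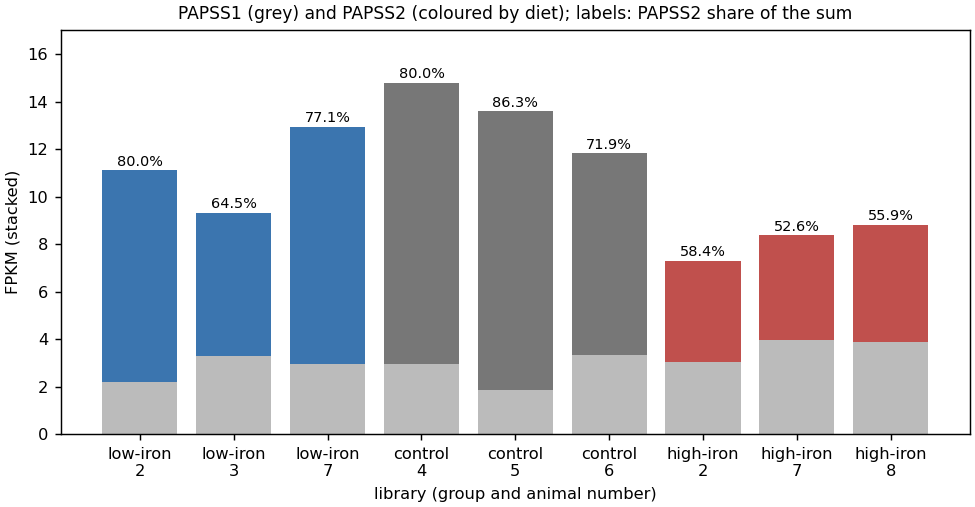
FPKM of PAPSS1 (light grey, bottom) and PAPSS2 (coloured, top) stacked for each of the 9 libraries (horizontal axis: diet and animal number), with the PAPSS2 share of the sum above each bar. The share lies between 52.6% and 58.4% on the high-iron diet and between 64.5% and 86.3% on the other diets.

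Among the cytosolic sulfotransferases, the enzymes that spend PAPS on hormones and drugs, no gene had groups that did not overlap. SULT1E1 was higher on average on both iron extremes than on the control diet, and SULT1A3 was lower on average on the high-iron diet. Neither difference held after adjustment over all genes.

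SULT1A3 (chr3:18351205-18354653), the phenol sulfotransferase, had 64.5, 123 and 52.3 FPKM in the high-iron libraries, 124, 123 and 105 FPKM in the controls and 166, 99.98 and 142 FPKM in the low-iron libraries. High-iron 2 and 8 were the lowest of all 9 libraries, and high-iron 7 was level with the controls. Both low libraries had EIF1AY at 0, whose part in this difference was not tested apart from the covariate fit, in which the difference between high-iron and control was -0.49. The log2 difference between high-iron and control was -0.65 (standard error 0.31, interval -1.33 to 0.03, adjusted p = 0.901 by limma). Between high-iron and low-iron it was -0.83 (standard error 0.31, adjusted p = 0.643 by limma), and the exact two-sided permutation test gave p = 0.2 for each, where 0.1 is the smallest that 3 against 3 libraries allow. Without high-iron 7 these differences were -1.01 and -1.20, and without low-iron 3 the latter was -1.04. Each of these 3 passed a fold change of 2 with an unadjusted p under 0.05.

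SULT1E1 (chr8:66811536-66838181, minus strand), the oestrogen sulfotransferase, varied most within groups. It had 194, 80.1 and 244 FPKM in the low-iron libraries, 70.0, 127 and 44.0 FPKM in the controls and 249, 107 and 137 FPKM in the high-iron libraries. The range over all 9 libraries ran from 44.0 FPKM in control 6 to 249 FPKM in high-iron 2, and the groups overlapped in each comparison. The log2 difference was 1.09 between low-iron and control (standard error 0.49, interval 0.01 to 2.17) and 1.07 between high-iron and control (standard error 0.49, interval -0.004 to 2.15). Between high-iron and low-iron it was -0.02 (interval -1.09 to 1.06).

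A gene was called when its fold change reached 2 and its unadjusted limma p was under 0.05. SULT1E1 was called higher in low-iron against control with an unadjusted p of 0.0475, where the exact two-sided permutation test gave p = 0.2 and limma an adjusted p = 0.9998. It missed the call in high-iron against control with an unadjusted p of 0.0507, where the exact permutation test gave p = 0.2 and limma an adjusted p = 0.894. The low-iron call was lost without low-iron 2 (0.93 on the log2 scale), low-iron 7 (0.77), control 4 (1.06), control 6 (0.72) or high-iron 8 (1.09). The high-iron difference passed the same call without low-iron 3 or low-iron 7 (1.07 each), control 5 (1.47) or high-iron 7 (1.33), and in 3 further settings. The calls of SULT1E1 therefore turned on single libraries.

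SULT2A1 (chr6:53525496-53536723, minus strand), which sulfates steroids and bile acids, was the highest of the 7 genes per length, at rank 147 of all genes in the table by mean FPKM. It had 495, 201 and 417 FPKM in the low-iron group, 432, 327 and 420 FPKM in the controls and 272, 285 and 380 FPKM in the high-iron group. The lowest value belonged to low-iron 3, and the groups overlapped. The log2 difference was -0.34 between high-iron and control (standard error 0.32, interval -1.04 to 0.37, adjusted p = 0.976 by limma) and -0.17 between low-iron and control (standard error 0.32, interval -0.87 to 0.53).

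**Figure D3:**
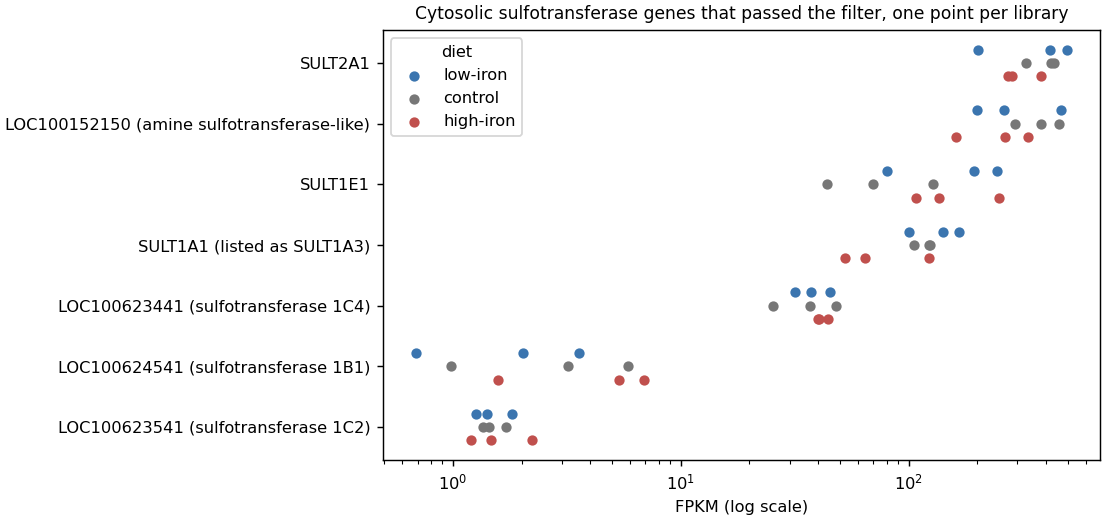
FPKM of the 7 cytosolic sulfotransferase genes that passed the filter (horizontal axis, log scale), 1 point per library coloured by diet. The 3 diets overlap for each gene, and levels span from 0.69 FPKM for the 1B1 gene to 495 FPKM for SULT2A1.

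The annotation names further sulfotransferases only by LOC numbers, and these were looked up by their product after the values of the named genes were known. With them the family had 15 genes in the table, of which 7 passed the filter and 3 were at 0 FPKM in all libraries (SULT4A1, SULT6B1 and LOC110262013, a SULT1 family member D1). LOC100152150, an amine sulfotransferase-like gene, was second to SULT2A1 by mean level, with 466, 199 and 262 FPKM in the low-iron group, 458, 292 and 382 FPKM in the controls and 264, 334 and 162 FPKM in the high-iron group. Its groups overlapped, and its log2 difference between high-iron and control was -0.61 (standard error 0.35, adjusted p = 0.932 by limma). Its level is uncertain because it shares 92.63% of 448 aligned coding bases, with a run of 123 identical bases, with its neighbour LOC100521054, which was at 0 FPKM in all libraries but low-iron 7.

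The levels of the other LOC genes were lower. LOC100623441, annotated as sulfotransferase 1C4, had 25.3 to 48.0 FPKM, and LOC100624541, a family 1B member, had 0.69 to 6.91 FPKM. LOC100623541, annotated as sulfotransferase 1C2, had 1.19 to 2.22 FPKM. None of the 4 tested LOC genes was called in any comparison, beside 0.882% to 1.57% of all tested genes. SULT2A1, LOC100152150, SULT1E1 and SULT1A3 together gave 93.6% to 96.7% of the family's summed FPKM in every library. That sum ran from 617 to 1370 FPKM in the low-iron group, from 921 to 1127 FPKM in the controls and from 780 to 898 FPKM in the high-iron group. The family total was thus below every control in all high-iron libraries, while the low-iron group held both the lowest and the highest total. This separation rested on the LOC genes, which were added after the other values were known. Without them the sums overlapped, at 516 to 586 FPKM in the high-iron group and 569 to 626 FPKM in the controls. Of all tested genes, 10.9% did not overlap in this comparison.

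SUOX and TST, which handle the sulfur that cysteine breakdown releases, differed little between diets. SUOX (chr5:21395246-21399715) had 30.02, 19.4 and 29.7 FPKM in the low-iron group, 27.1, 23.9 and 20.01 FPKM in the controls and 23.2, 26.0 and 27.1 FPKM in the high-iron group. Its log2 difference was 0.11 between high-iron and control (interval -0.35 to 0.58), 0.14 between low-iron and control (interval -0.33 to 0.60) and -0.03 between high-iron and low-iron. The intervals of SUOX exclude a fold change of 2 in these comparisons and leave room for smaller ones.

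TST (chr5:10749264-10759623) had 187, 150 and 210 FPKM in the low-iron group, 152, 128 and 179 FPKM in the controls and 131, 178 and 161 FPKM in the high-iron group. The log2 difference was 0.26 between low-iron and control (interval -0.21 to 0.72), 0.04 between high-iron and control (interval -0.43 to 0.50) and -0.22 between high-iron and low-iron (interval -0.68 to 0.24). These intervals also lie inside a fold change of 2 in either direction.

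**Figure D4:**
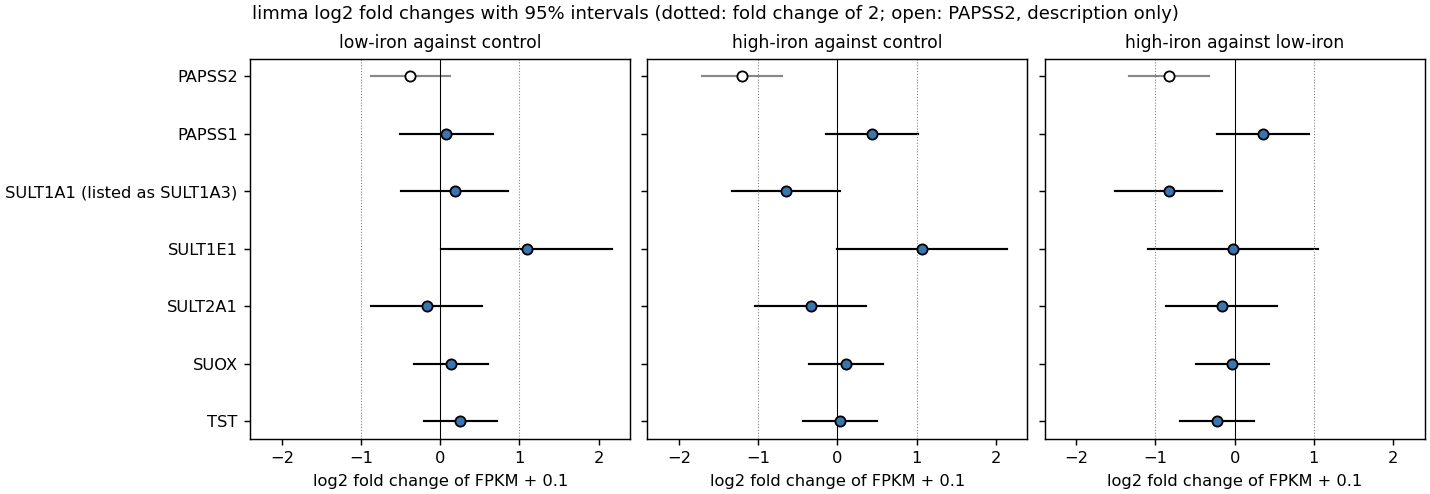
Differences between diets in log2(FPKM + 0.1) (horizontal axis) for the 7 genes in the 3 comparisons, with 95% intervals from limma; dotted lines mark a fold change of 2, and PAPSS2 (open symbols) is a description. The PAPSS2 point lies at -1.21 in high-iron against control, SULT1E1 near 1.09 and 1.07 against control, and the other points lie within a fold change of 2.

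The calls of the 6 genes other than PAPSS2 are set here against those of all genes. The call was reached by 1 of them in low-iron against control, where 0.882% of all tested genes reached it. It was reached by 0 of 6 in high-iron against control, where the share of all genes was 1.57%, and by 0 of 6 in high-iron against low-iron, where it was 1.54%. Unadjusted p-values under 0.05 by limma were found for 463, 704 and 900 of the 12584 tested genes in these comparisons. At an adjusted p under 0.05 by limma, 0 of the 6 passed in any comparison, against 0.0%, 0.00795% and 0.0% of all genes.

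Groups that did not overlap were found for 0 of the 6 in each comparison, where 8.34% of all genes had them in low-iron against control, 10.9% in high-iron against control and 13.2% in high-iron against low-iron. The median log2 difference of the 6 genes was 0.16, 0.07 and -0.10 in these comparisons, beside 0.08, 0.10 and 0.03 over all tested genes. In high-iron against low-iron, 5 of the 6 were lower, with PAPSS1 the exception. The comparisons share their libraries in pairs, so that a high or low control value enters both comparisons with the controls.

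By mean FPKM over the 9 libraries the order was SULT2A1 (359), TST (164), SULT1E1 (139), SULT1A3 (111), SUOX (25.2), PAPSS2 (7.83) and PAPSS1 (3.06). SULT2A1 was above TST, SULT1A3 above SUOX, SUOX above PAPSS2 and PAPSS2 above PAPSS1 in 9 of 9 libraries. TST was above SULT1E1 in 6 libraries and SULT1E1 above SULT1A3 in 5, so these neighbours do not differ beyond their spread. SULT2A1, SULT1E1 and SULT1A3, which use PAPS, thus stood well above the synthases that make it, on the scale of transcripts per length. Golgi sulfotransferases, which also use PAPS, stood on both sides of PAPSS2, with means of 27.4 FPKM for TPST1 and 3.16 FPKM for TPST2. The coefficient of variation over the 9 libraries was largest for SULT1E1, at 53.6%, followed by PAPSS2 at 38.7% and SULT1A3 at 32.2%, and smallest for SUOX at 15.2%.

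Pearson's r with PAPSS2 over the 9 libraries, on the log2 scale, was 0.66 for SULT1A3, 0.57 for SULT2A1, 0.22 for SUOX, 0.12 for TST, -0.20 for SULT1E1 and -0.68 for PAPSS1. These are descriptions over 9 libraries that share the diet groups. Among all tested genes with a symbol, patterns among the most like PAPSS2 were those of PAICS (r = 0.95), an enzyme of purine synthesis, CPS1 (0.92), the first enzyme of the urea cycle, AASS (0.90), an enzyme of lysine breakdown, and ACVR1B (0.89), an activin receptor. CPS1 had 780, 843 and 722 FPKM in the controls, 331, 449 and 513 FPKM in the high-iron group, and 792, 493 and 640 FPKM in the low-iron group. Low-iron 3, the low-iron library with the least PAPSS2, was also the lowest of its group for each of these 4 genes. They were picked for following PAPSS2 over these same libraries.

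The patterns most opposed to PAPSS2 were those of ITGB2 (r = -0.97), the integrin beta chain of leukocytes, FAM57A (-0.96) and CD163 (-0.96), the haemoglobin scavenger receptor of macrophages. CD163 stood at 109, 96.6 and 101 FPKM in the high-iron group, 66.2, 67.6 and 72.3 FPKM in the controls and 79.6, 99.4 and 73.9 FPKM in the low-iron group. All of these genes were picked for their likeness or contrast from the tested genes with a symbol, so the size of r and the shared pattern over the libraries are what the search selected.

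**Figure D5:**
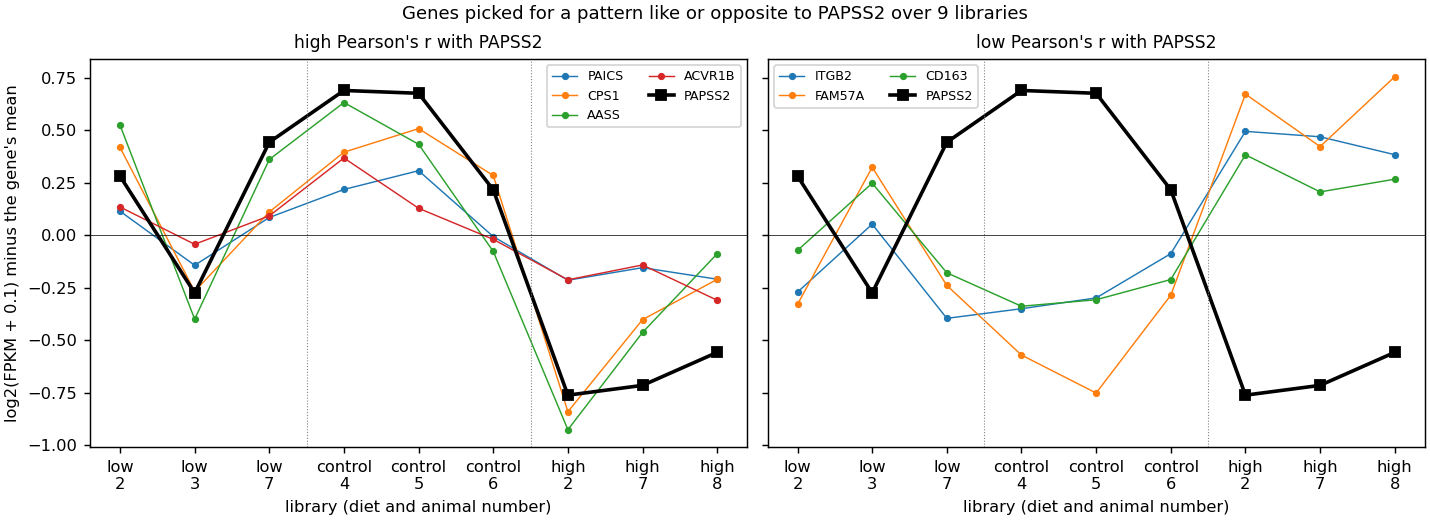
Level of PAPSS2 (black) and of genes with high (left, 4 genes) and low (right, 3 genes) Pearson's r with it, as log2(FPKM + 0.1) minus each gene's mean (vertical axis), in the 9 libraries (horizontal axis). In the left panel low-iron 3 is the lowest low-iron library for each gene, and in the right panel it is the highest for each of the 3 genes. The genes were picked for these patterns.

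Markers of other liver cell types also differed on average between diets. Of 8 Kupffer cell and macrophage markers, 7 were higher in high-iron than in control on average and 6 did not overlap, with 0 called, where 10.9% of all tested genes did not overlap and their median log2 difference was 0.10. Their summed level was 869 to 1012 FPKM in the high-iron group, 673 to 832 FPKM in the controls and 735 to 839 FPKM in the low-iron group. In high-iron against control 1.57% of all tested genes were called. Of 10 stellate cell and fibroblast markers, 9 were higher in that comparison, 3 did not overlap and 2 were called (COL1A1 and RGS5). Their summed level was 225 to 333 FPKM in the high-iron group against 134 to 219 FPKM in the controls. In the low-iron group it was 140 to 333 FPKM, and 0 of the 10 did not overlap in high-iron against low-iron. Of 7 endothelial markers, 6 were higher in high-iron than in control, 5 did not overlap and 1 was called (VWF). Their sums were 235 to 275 FPKM against 192 to 226 FPKM, and 191 to 257 FPKM in the low-iron group. Of 6 tested T and NK cell markers, 6 were higher, 1 did not overlap and 1 was called (CD8A). The sums of that list were 29.3 to 46.6 FPKM against 19.4 to 28.3 FPKM, and 17.4 to 23.4 FPKM in the low-iron group. Of 5 bile duct markers 4 were higher, and of 6 tested B and plasma cell markers 4 were, with 0 called in either list. The call of RGS5 was lost without control 6 (0.64), and that of CD8A without control 6 (0.69) or high-iron 8 (0.68) and in 5 further settings. The part of these cells in the PAPSS2 level was not tested.

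The summed level of hepatocyte markers overlapped between diets, at 62802 to 79969.6 FPKM in the high-iron group and 64979 to 89343 FPKM in the controls. Most of this sum was ALB, at 46231 to 74134 FPKM. The list held 8 genes in 9 entries, with TF on 2 of them. The median log2 difference of the entries was -0.0044 in high-iron against control, with 0 of 9 called and 1, CPS1, that did not overlap. Periportal hepatocyte markers, among them CPS1, were lower in the high-iron group than in the controls in 10 of 10 cases, with a median of -0.48, 4 that did not overlap and 1 called, beside 10.9% and 1.57% of all tested genes. The called gene was ARG1, at -1.13, and it lost the call without control 6 (-0.99) or high-iron 2 (-0.996). Their sum was 3783 to 4526 FPKM in the high-iron group, 4789 to 6130 FPKM in the controls and 4699 to 6557 FPKM in the low-iron group. Of 10 pericentral markers 7 were higher and 3 lower in high-iron against control, with 0 called and 0 that did not overlap. Their median was 0.12 beside 0.10 over all tested genes. Their sum was 2045 to 2747 FPKM in the high-iron group, 2891 to 3083 FPKM in the controls and 2054 to 3229 FPKM in the low-iron group. The sums of periportal and of pericentral markers were thus both below every control in the high-iron libraries. CYP2E1, with a mean of 2253 FPKM, was most of the pericentral sum. None of these hepatocyte, Kupffer, stellate, endothelial or T and NK cell markers was at 0 in all libraries.

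The rest of the pathway was read from lists of genes for each step. Of all tested genes, 0.882% were called in low-iron against control, 1.57% in high-iron against control and 1.54% in high-iron against low-iron. PAPS is carried into the Golgi by SLC35B2 and SLC35B3, and the spent nucleotide is removed by BPNT1 and IMPAD1. All 4 were tested and 0 were called in any comparison. SLC35B2 had 6.98 to 10.4 FPKM over the 9 libraries and IMPAD1 4.55 to 9.86 FPKM, and their log2 differences between high-iron and control were 0.15 (standard error 0.19) and 0.09 (standard error 0.30).

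Of 7 sulfate transporters in the table, 5 passed the filter and 0 were called. Groups did not overlap for 1 of the 5 in low-iron against control, beside 8.34% of all tested genes. They did not for 1 in high-iron against control and for 2 in high-iron against low-iron, beside 10.9% and 13.2%. The 2 transporters with the highest means are given here. SLC26A11, a sodium-independent sulfate transporter, had 23.4, 11.2 and 23.8 FPKM in the controls, 5.80, 18.8 and 20.2 FPKM in the high-iron group and 13.7, 9.19 and 13.5 FPKM in the low-iron group. SLC26A1, a sulfate and oxalate exchanger, had 8.20 to 22.2 FPKM over all libraries. Both varied as much within the control and high-iron groups as between them.

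Golgi sulfotransferases, which sulfate tyrosines of secreted proteins and the sugar chains of proteoglycans, numbered 34 in the table. Of these 17 passed the filter, 5 were at 0 in all libraries and 0 were called in any comparison, beside 0.882% to 1.57% of all tested genes. In low-iron against control 14 of 17 were higher, with a median of 0.29 beside 0.08 over all tested genes. In high-iron against control 13 of 17 were higher, with a median of 0.17 beside 0.10. TPST1, a tyrosylprotein sulfotransferase, had 19.8 to 34.2 FPKM, and NDST1, which modifies heparan sulfate, had 12.9 to 24.8 FPKM.

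Sulfatases remove what sulfotransferases add. The list of sulfatases and their modifying factors had 16 entries in the table, with STS on 2 of them, and 13 passed the filter. In high-iron against control 10 were higher and 3 lower, with a median of 0.23 beside 0.10 over all tested genes. In that comparison 0 were called, beside 1.57% of all tested genes. In high-iron against low-iron 1 was called, beside 1.54% of all tested genes. It was ARSE, the arylsulfatase E gene, with 1.47, 0.61 and 1.04 FPKM against 0.0, 0.22 and 0.67 FPKM (log2 difference 1.89, standard error 0.73, adjusted p = 0.656 by limma). These low levels overlapped, and the call was lost without low-iron 2 (1.12), high-iron 2 (1.63) or high-iron 8 (1.86), and at a pseudocount of 1 the difference was 0.66. IDS, the lysosomal iduronate 2-sulfatase, was not called but had 42.9, 37.8 and 39.4 FPKM in the high-iron group, below the 45.9 to 60.0 FPKM of all other libraries. Its adjusted p by limma was 0.901 against control and 0.615 against low-iron. Against control 3 of the 13 tested entries did not overlap, IDS among them. Of all tested genes, 10.9% did not overlap in high-iron against control and 13.2% in high-iron against low-iron.

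Enzymes of cysteine and sulfide oxidation, to which SUOX and TST belong, numbered 15 tested of 16 in the table. In high-iron against low-iron 14 of 15 were lower, with a median of -0.14 beside 0.03 over all genes, and 1 was called, beside 1.54% of all tested genes. This was CDO1, cysteine dioxygenase, with 287, 302 and 240 FPKM against 516, 555 and 584 FPKM (log2 difference -1.003, standard error 0.37, adjusted p = 0.643 by limma). The controls spanned both groups, at 228, 632 and 198 FPKM, and control 5 was the highest library of all. The call sat on the threshold and was lost without low-iron 3 (-0.997), low-iron 7 (-0.96) or high-iron 8 (-0.90), and with quantile normalization (-0.95). CTH, the enzyme that releases cysteine from cystathionine, had 187 to 409 FPKM and was not called. GOT1, the cytosolic aspartate aminotransferase, had 96.6 to 319 FPKM and was not called either.

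Sulfite oxidase needs the molybdenum cofactor, and of 5 genes for its synthesis 5 were tested and 0 were called. MOCS1, which starts that synthesis, had 19.6 to 34.6 FPKM and MOCOS, a sulfurase of the cofactor, 9.64 to 25.1 FPKM. Of 14 nuclear receptors and liver factors that act on sulfotransferase genes, all 14 were tested and 0 were called. Both counts of 0 stand beside 0.882% to 1.57% of all tested genes called, depending on the comparison. HNF4A, the master factor of hepatocytes, had 58.7, 55.8 and 63.4 FPKM in the high-iron group, 63.5, 96.3 and 102 FPKM in the low-iron group and 56.7, 92.3 and 67.3 FPKM in the controls. RXRA, the shared partner of many of these receptors, had 43.2 to 61.2 FPKM.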

How the data were processed

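Liver RNA of 9 pigs was sequenced as 1 library each. The authors used HISAT2 for alignment (build Sscrofa11.1) and StringTie for assembly, and the deposited table holds FPKM per gene, without counts, so that depth and counting error are unknown from the table. Genes were listed by serial number, read as a gene's place in NCBI release 106 for that build, where 20660 of 20660 numbers fell on a protein-coding gene. Groups were taken from the series' design text. Values were analysed as log2(FPKM + 0.1) for genes with a mean of at least 0.5 FPKM, in limma 3.58.1 (R 4.3.3), with 1 fit of the 3 groups, a variance trend and Benjamini-Hochberg adjustment over 12584 genes. The procedure was tested on simulated data. Exact two-sided permutation tests used numpy 2.4.6 in Python 3.11.15, and sequences were aligned with Biopython 1.88. Calls needed a fold change of 2 and an unadjusted p under 0.05, the thresholds of the study. The genes and lists were chosen with earlier results of these data known. Named beside the 7 genes are called genes of each list, up to 2 of the highest uncalled genes of a list, and the 5 genes most and 3 least like PAPSS2, and sulfotransferases with a LOC number were added by annotated product. Certain genes under this rule are not reported here. The alternatives are given in the closing section.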

Additional observations from a re-analysis of the deposited data

How the results depend on the processing

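The difference of PAPSS2 between high-iron and control kept its sign in all 20 alternatives, from -1.33 with quantile normalization to -1.07 at a pseudocount of 1, and from -1.36 without control 6 to -1.13 without control 4. PAPSS2 was picked for this fall in the same libraries, so the kept sign is a description and no test of it. The numbers of called genes moved more. At a pseudocount of 1 they were 34 in low-iron against control, 74 in high-iron against control and 67 in high-iron against low-iron, instead of 111, 197 and 194. Without a filter on low FPKM they were 235, 372 and 354, and array quality weights gave 171 in low-iron against control and 334 in high-iron against low-iron. Leaving out 1 library gave 111 to 209 (186 without low-iron 2, 209 without control 5 and 171 without control 6), 190 to 296 (296 without control 4) and 186 to 333 (333 without low-iron 3). Under median-of-ratios scaling the calls split into 98 higher and 52 lower in high-iron against control, and under quantile normalization into 82 and 59, instead of 160 and 37. In low-iron against control the split of 75 and 36 became 53 and 48 or 52 and 58, and in high-iron against low-iron 127 and 67 became 110 and 75 or 91 and 92. Median-of-ratios scaling moved the median of all genes in high-iron against control from 0.10 to -0.01. The cause of these shifts was not tested.

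SULT1E1 in low-iron against control was also not called without the filter (1.09), with median-of-ratios scaling (1.01), quantile normalization (1.00), only the groups compared (1.09) or EIF1AY as a covariate (1.09), and SULT1A3 in high-iron against low-iron was called with array weights (-1.05). SULT1E1 in high-iron against control was called after rescaling to TPM (1.10), with only the groups compared (1.07) and with array weights (1.04). In the same comparison CD8A was not called at a pseudocount of 1 (0.81), with median-of-ratios scaling (0.89), quantile normalization (0.89), the replicate block (0.99) or EIF1AY as a covariate (0.93), RGS5 was not called with array weights (0.98), and ARG1 was not called with EIF1AY as a covariate (-0.97). PAPSS1, SULT2A1, SUOX and TST were called in none of the alternatives run. Low-iron and high-iron libraries share the animal numbers 2 and 7. Each pig received 1 diet, so the numbers were not read as pairs. The deviations of the same-numbered libraries from their group means correlated at 0.018 and 0.021, and the fit with the number as a block estimated a correlation of 0.20. With the animal number as a replicate block, PAPSS2 was -1.24 in high-iron against control, SULT1E1 in low-iron against control (1.08) and CDO1 in high-iron against low-iron (-0.99) were not called, and 110, 207 and 228 genes were called. FPKM without counts give no depth, so the precision of each value rests on 3 libraries a group.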

Other observations

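Other conjugation enzymes of the liver, 15 tested of 16 in the table, were mostly lower in high-iron than in low-iron livers, with 12 of 15 lower, a median log2 difference of -0.12 and 1 called. Over all tested genes the median was 0.03, and 1.54% were called. The called gene was NNMT, nicotinamide N-methyltransferase, with 378, 562 and 167 FPKM in the high-iron group, 646, 1190 and 537 FPKM in the low-iron group and 607, 398 and 721 FPKM in the controls. Its log2 difference between high-iron and low-iron was -1.18 (standard error 0.45, adjusted p = 0.656 by limma), the groups overlapped, and the call was lost without low-iron 3 (-0.84) or high-iron 8 (-0.69). MGST1, a microsomal glutathione transferase, had 533 to 935 FPKM and GSTO1, an omega-class glutathione transferase, 212 to 581 FPKM, and neither was called.

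SLC13A1, the sodium-coupled sulfate transporter best known from the kidney, was below the filter but reached 1.14 FPKM in high-iron 2 and at most 0.19 FPKM in the other 8 libraries. It was picked with its values in view. Of the remaining marker lists in high-iron against low-iron, SPP1 (1.02) was called among 5 bile duct markers, JCHAIN (1.15) among 6 B and plasma cell markers and SLC1A2 (-1.95) among 10 pericentral markers. In this comparison 1.54% of all tested genes were called. JCHAIN lost its call without low-iron 3 (0.75) or high-iron 8 (0.94), SPP1 without low-iron 2 or 7, control 4 or 6, or high-iron 2 or 7 (0.63 to 1.02), and SLC1A2 without low-iron 2, 3 or 7, control 4, or high-iron 2 or 7 (-2.15 to -1.36). None of 2 tested red cell markers was called.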
